A study of Mus musculus with 4 samples.

Results

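Integrins are cell-surface receptors built from 1 alpha and 1 beta subunit, and they fasten cells to the extracellular matrix. The genes described here encode subunits that bind fibronectin, collagens or proteins carrying the RGD tripeptide (arginine, glycine, aspartate), and they are Itga1, Itga2, Itga4, Itga5, Itga8, Itga11, Itgav, Itgb1, Itgb3 and Itgb5. All probe sets that the platform annotation assigns to these 10 genes were taken, and the probe set with the highest mean level over the arrays stood for its gene. This gave 31 probe sets for 9 of the 10 genes, out of 18193 named genes. Itga11, a collagen-binding subunit, had no probe set under its name in the annotation used and was not analysed here.

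Expression was measured on 4 one-colour Affymetrix arrays of the K7M2 line, derived from a mouse osteosarcoma and grown in DMEM with 10% serum. One array came from K7M2 cells that over-express GFP (the GFP array), and 3 came from K7M2 cells that over-express ezrinT567A-GFP (replicates 1 to 3). Ezrin is a linker between membrane proteins and cortical actin, and T567A denotes the replacement of its regulatory threonine by an alanine that cannot be phosphorylated. Cells on all 4 arrays therefore over-express a GFP sequence. The labels do not say what promoter drove the transgenes, or whether each replicate was its own culture or clone, so the spread behind the p-values may be technical.

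Array medians lay between 3.85 and 3.89 on the log2 scale. Mesenchymal markers were bright, with Vim at 13.1 and Col1a2 at 12.3 on the GFP array, and the osteoblast transcription factor gene Sp7 lay near the median gene level, at 5.05. The bone markers Alpl (3.63) and Ibsp (2.78) were dim, and Runx2, Bglap and Spp1 were not measured. Ezr, the gene of the transgene, stood at 8.90 on the GFP array and at 8.91 ± 0.09 (SD, n = 3) with ezrinT567A-GFP, and its other probe set gave a difference of 0.33. The Ezr probe sets check the labels only if they match the transgene's sequence, which is not given in the sources used here. Replicate 2 had the highest 18S rRNA control signal (11.3, against 7.65 to 9.09 on the other arrays). The mean signal of the Bio and Cre spike controls was lowest on the GFP array, at 9.09 against 9.86 to 10.9 with ezrinT567A-GFP. With a single GFP array, its own spread is unknown, and the test assumed that it varies like the others.

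In adherent mesenchymal cells, the Itga5 and Itgb1 subunits pair as the classical fibronectin receptor, and Itgav pairs with Itgb1, Itgb3 or Itgb5 to bind RGD proteins such as vitronectin and osteopontin. Itga1, Itga2 and Itga11 each pair with Itgb1 to bind collagen. Inside the cell, talin and kindlin bind the beta tails and connect them to actin, and ezrin-family proteins work at the same cortex.

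None of the 9 measured subunits passed the test between ezrinT567A-GFP and GFP. Differences are log2 values, the mean of the 3 ezrinT567A-GFP arrays less the GFP array, so that 1 is a 2-fold difference, and were tested with limma, with Benjamini-Hochberg adjustment across the 18193 genes (threshold 0.05). The 9 differences ran from -0.29 (Itgav) to 0.29 (Itga5), with a median of 0.02 against 0.03 over all genes. Of the 9, 6 were above and 3 below 0, where 10201 of all 18193 genes were above and 7984 below. By limma, 0 of 9 had an adjusted p under 0.05, where the share over all genes was 0%, and 0 of 9 had an unadjusted p under 0.05, where it was 14.0%. The limma adjusted p of the 9 ranged from 0.595 to 0.991. An exact permutation of 4 arrays with 1 in a group cannot go below p = 0.25.

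The 95% confidence intervals say how large a difference these arrays could have hidden. All 9 intervals included 0, and all 9 lay inside a 2-fold difference in either direction, as did the intervals of 87.7% of all genes. Given the spread of the 3 ezrinT567A-GFP arrays, the intervals thus bound each difference without showing that the levels were alike. If that spread is only technical, they are too narrow for a difference between cultures. The median size of the difference, whatever its sign, was 0.13 over the 9 subunits and 0.16 over all genes, beside a median SD of 0.13 for all genes over the 3 ezrinT567A-GFP arrays.

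**Figure D1:**
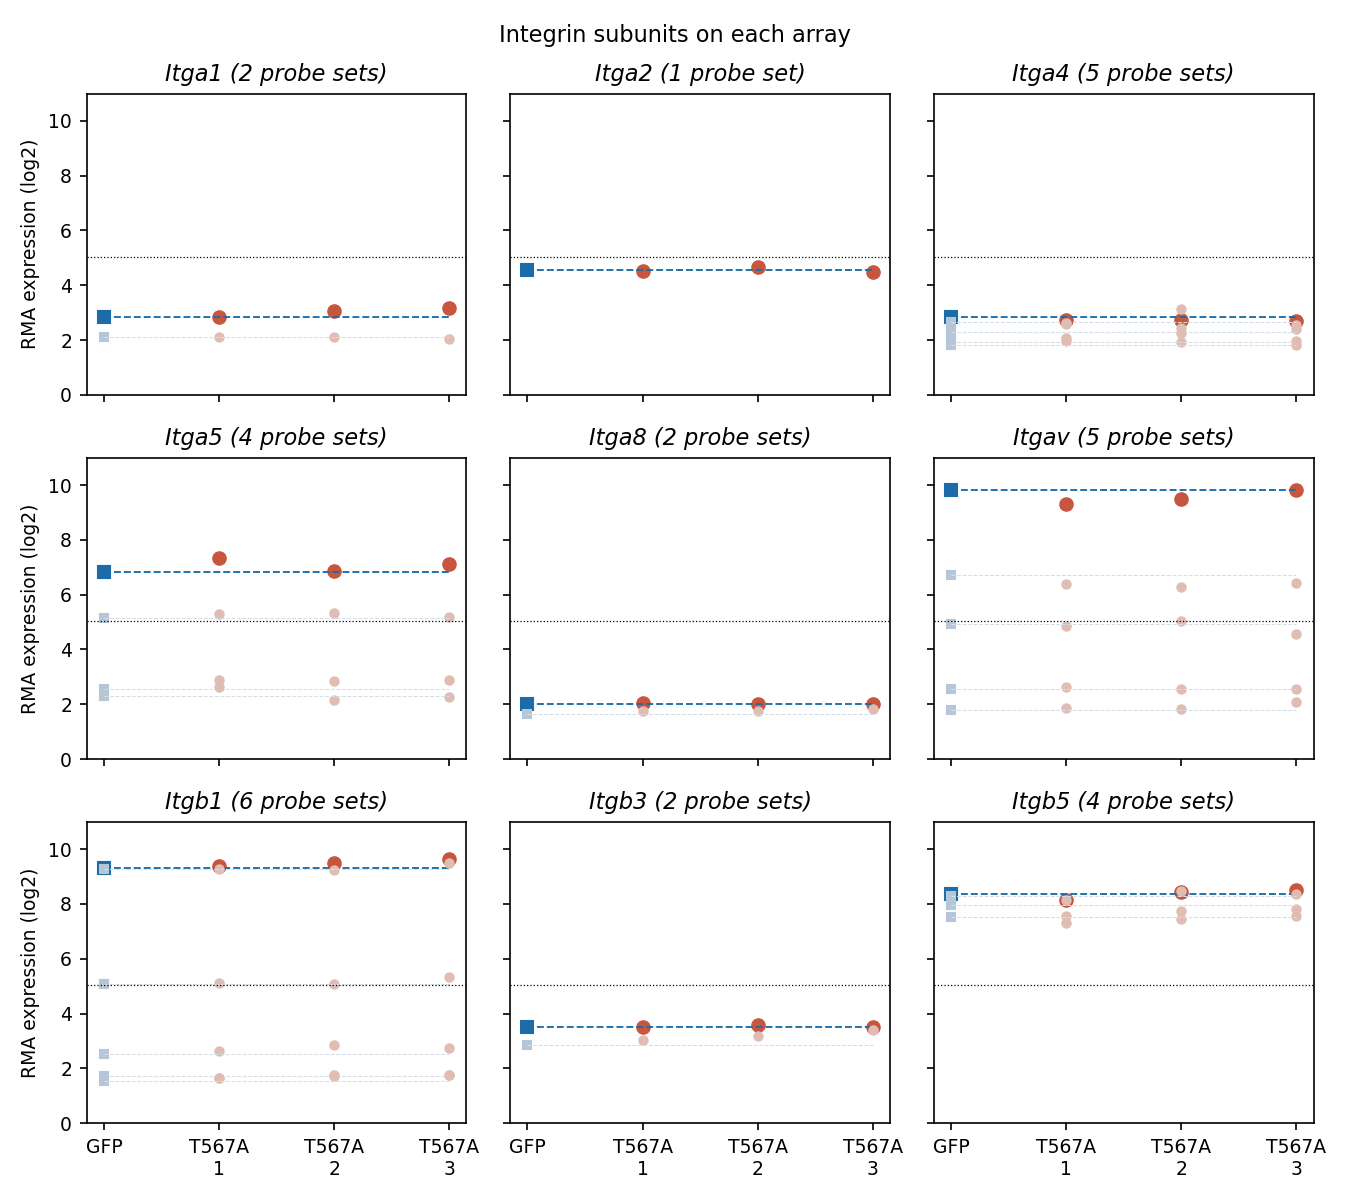
RMA expression (log2, vertical axis) of the 9 measured subunits on the GFP array (squares) and on ezrinT567A-GFP replicates 1 to 3 (circles), 1 panel per gene. Dark symbols are the probe set that stands for the gene, pale symbols its other probe sets, dashed lines the GFP level, and the dotted line the median level of all genes (5.04). Itga5, Itgav, Itgb1 and Itgb5 lie above that median and the other 5 below it.

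Among the alpha subunits, Itgav had the lowest difference. It read 9.83 on the GFP array and 9.32, 9.49 and 9.80 in replicates 1, 2 and 3. All 3 replicates lay below GFP, but replicate 3 was only 0.02 lower, while replicate 1 was lower by 0.51, so the gap to GFP was smaller than the distance between replicates. The mean was 9.54 ± 0.25 (SD, n = 3), 1.22-fold below GFP, a difference of -0.29 (SE 0.21, 95% interval -0.87 to 0.30, limma adjusted p = 0.623). Without replicate 1 the difference was -0.18, and without replicate 3 it was -0.42.

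Other Itgav probe sets differed in how they read this gene. One at a middle level read 6.71 on the GFP array and 6.38, 6.28 and 6.42 in replicates 1, 2 and 3. Here the 3 replicates sat close together, all below GFP, with a difference of -0.35 (SE 0.13). In the fit over all probe sets that value had an unadjusted p of 0.0526 by limma and an adjusted p of 0.409. It was the largest downward difference of all 31 probe sets. A further probe set, near the median level of all genes, gave -0.10, and 2 dim ones gave 0.04 and 0.14.

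Itga5, whose only known partner is Itgb1, showed a difference of the same size with the opposite sign. It read 6.82 on the GFP array and 7.34, 6.86 and 7.12 in replicates 1, 2 and 3. Every replicate was above GFP, and replicate 2 barely so, by 0.04. The ezrinT567A-GFP mean was 7.11 ± 0.24 (SD, n = 3), a difference of 0.29 (SE 0.22, 95% interval -0.31 to 0.89, limma adjusted p = 0.634). It was 0.17 without replicate 1 and 0.41 without replicate 2.

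The remaining Itga5 probe sets also had mean differences above 0, with smaller or dimmer signals. The next brightest gave 5.14 in GFP and 5.20 to 5.33 with ezrinT567A-GFP, a difference of 0.13 (SE 0.13). A dim one read 2.56 in GFP and 2.83 to 2.88 with ezrinT567A-GFP, a difference of 0.31 (SE 0.09). Of the 31 probe sets this 1 had an unadjusted p under 0.05 by limma, where 12.4% of all probe sets had one. Its adjusted p over all probe sets was 0.357. The dimmest gave 0.04 with mixed sides, at 2.31 in GFP and 2.64, 2.16 and 2.25 in replicates 1, 2 and 3.

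Replicate 1 held the extreme value of both alpha subunits. There Itga5 was 0.52 above GFP and Itgav 0.51 below it, whereas in replicate 3 Itga5 was 0.30 above GFP and Itgav 0.02 below it. The sign of each difference was the same in all 3 replicates, and its size varied between replicates by 0.48 for Itga5 and 0.49 for Itgav.

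Itga8 and Itga4 had low signals. Itga8, which binds nephronectin in the developing kidney, read 1.998 on the GFP array and 2.06, 1.998 and 1.998 in the replicates. Replicates 2 and 3 carried exactly the GFP value, and the difference was 0.02 (SE 0.08). Its second probe set was at 1.64 in GFP and 1.74 to 1.81 with ezrinT567A-GFP.

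Itga4, which binds fibronectin and the endothelial adhesion molecule VCAM-1, read 2.86 on the GFP array and 2.73, 2.75 and 2.70 in replicates 1, 2 and 3. The replicates were close to each other and all below GFP, with a difference of -0.13 (SE 0.09, 95% interval -0.38 to 0.12, limma adjusted p = 0.605). The 4 other Itga4 probe sets differed in sign from it, at 0.06 to 0.21, and none of the 5 exceeded 3.14 on any array. The direction for Itga4 therefore depended on the probe set, and with the mean of its probe sets the difference was 0.09.

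The collagen-binding alpha subunits lay below the median gene level as well. Itga1 read 2.86 on the GFP array and 2.86, 3.05 and 3.17 in replicates 1, 2 and 3. Replicate 1 equalled GFP and the others were above it, with a difference of 0.17 (SE 0.15, 95% interval -0.25 to 0.59), and its second probe set gave -0.03. The Itga1 difference was 0.09 without replicate 3 and 0.25 without replicate 1. Itga2, with a single probe set, read 4.56 on the GFP array and 4.52, 4.68 and 4.50 in the replicates. GFP lay inside the range of the replicates, with a difference of 0.01 (SE 0.14, 95% interval -0.37 to 0.38).

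Itgb1, the common partner of all the alpha subunits named above, had the largest moderated t of the 9, in size. It read 9.33 on the GFP array and 9.40, 9.51 and 9.63 in replicates 1, 2 and 3. The 3 replicates were all above GFP, with a mean of 9.51 ± 0.11 (SD, n = 3) and a difference of 0.19 (SE 0.13, 95% interval -0.16 to 0.53, limma adjusted p = 0.595). That placed it at rank 6691 of 18193 genes by moderated t. A second bright probe set read 9.26 in GFP and 9.27, 9.25 and 9.50 in the replicates, a difference of 0.08 (SE 0.15). On that probe set replicates 1 and 2 were level with GFP to within 0.02. Of the 4 dimmer Itgb1 probe sets, 3 gave 0.11 to 0.20 and the fourth -0.03.

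Itgb5, a vitronectin receptor subunit found with Itgav, had 4 bright probe sets. The brightest read 8.37 on the GFP array and 8.15, 8.43 and 8.50 in replicates 1, 2 and 3. GFP fell inside the range of the replicates, replicate 1 being the lowest, and the difference was -0.02 (SE 0.18, 95% interval -0.49 to 0.46, limma adjusted p = 0.980). The other Itgb5 probe sets gave 0.02 (SE 0.17), -0.10 (SE 0.14) and -0.25 (SE 0.15). Only the last had all 3 replicates below GFP, from 7.96 in GFP to between 7.56 and 7.82. Its name, like that of the probe set at -0.10, ends in _x_at, a kind that may also bind other transcripts.

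Itgb3, the beta subunit of the platelet fibrinogen receptor and a partner of Itgav, read 3.52 on the GFP array and 3.52, 3.57 and 3.52 in the replicates. Replicates 1 and 3 equalled GFP, and the difference was 0.02 (SE 0.10). Its dimmer probe set read 2.86 in GFP and 3.02, 3.18 and 3.39 with ezrinT567A-GFP. All 3 values were above GFP, and the difference of 0.34 (SE 0.18, limma adjusted p = 0.523 over all probe sets) was the largest upward one of the 31.

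The 9 subunits fell into a bright and a dim set. Itgav, Itgb1, Itgb5 and Itga5 lay above 96.2%, 95.8%, 91.3% and 81.8% of all probe sets by mean level, while Itga2 lay above 59.2%, Itgb3 45.1%, Itga1 34.4%, Itga4 29.3% and Itga8 9.14%. These shares describe signal and not transcript number, because probe sets bind with different strength. Of the 31 probe sets 11 lay above the median gene level of 5.04 and 20 below it.

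Some probe sets carried exactly the same value as others. The GFP value of 2.86 was identical, to 6 decimals, for the leading probe sets of Itga1 and Itga4 and the second probe set of Itgb3, and each shared it with 162 other probe sets on that array. Among the 20 dim probe sets 18 had a value that another probe set shared on at least 1 array, against 3 of the 11 bright ones. On the GFP array alone, 32.4% of all probe sets at or below the median gene level and 14.6% of those above it shared their value. The counts of the 31 probe sets take any of the 4 arrays, so they cannot be read against these shares. How much of the signal of the dim subunits is background was not tested.

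The replicates were also counted by their side of GFP. Itga5 and Itgb1 had all 3 replicates above GFP, which 32.5% of all genes had, and Itgav and Itga4 had all 3 below, which 25.6% had. That is 4 of 9 on 1 side, where 58.0% of all genes were, and the other 5 were mixed or tied. Over the 31 probe sets, 13 had all replicates above GFP and 4 below, against 30.2% and 26.3% of all probe sets, and 9 of those 13 were dim.

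**Figure D2:**
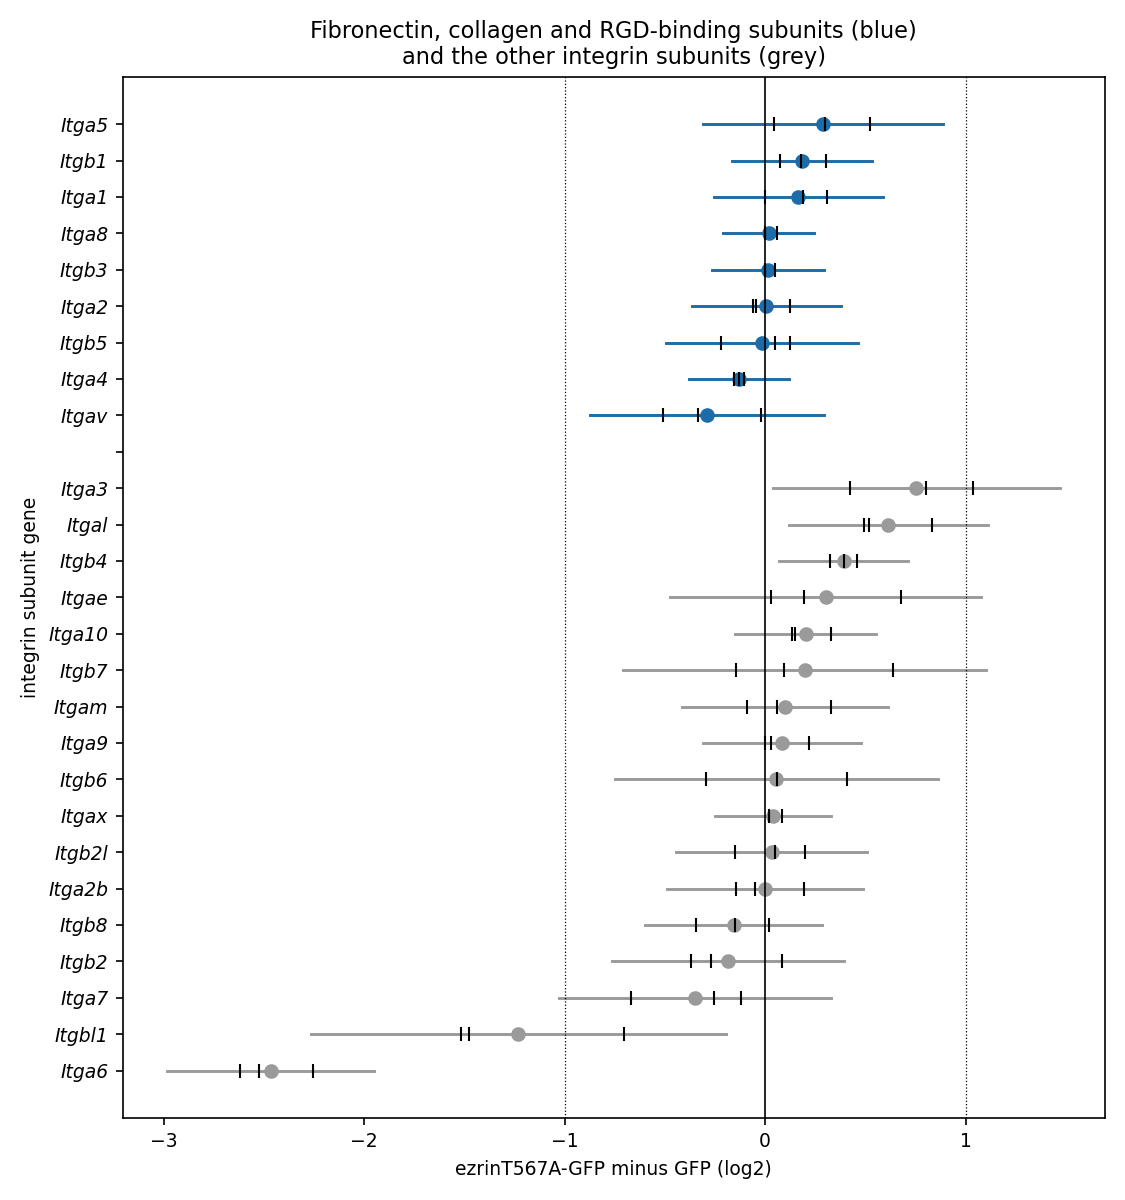
Difference ezrinT567A-GFP minus GFP (log2, horizontal axis) for the 9 subunits (blue) and for the other measured integrin genes (grey). Points are means over 3 replicates, bars limma's 95% intervals, ticks the single replicates, and dotted lines a 2-fold difference. The blue intervals all cross 0. Those of Itga6 and Itgbl1 lie wholly below it and those of Itga3, Itgal and Itgb4 wholly above. The intervals are not adjusted for the number of genes, and whether the sets differ was not tested.

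Differences of the other integrin genes ran from -2.47 to 0.75. Of 17 measured, 0 had a limma adjusted p under 0.05, and 3 above and 2 below GFP had an unadjusted p under 0.05, where 7.46% and 6.50% of all genes did. Their median difference was 0.06. At least 2-fold apart were 0 of the 9 subunits described here, where 1.68% of all genes were. Of the 17 others 2 were, Itga6 and the integrin-beta-like Itgbl1, both on the lower side, where 0.704% were. The 17 are the measured integrin genes outside the 9 and were not sorted by ligand, and Itgad was not measured. Whether the 2 sets differ was not tested.

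Itga6, a laminin-binding alpha subunit that pairs with Itgb1 or Itgb4, read 8.14 on the GFP array and 5.88, 5.52 and 5.61 in replicates 1, 2 and 3. All 3 were far below GFP, with a difference of -2.47 (SE 0.19, limma adjusted p = 0.153), and a second probe set gave -2.43. Itgb4, its partner in epithelial anchoring junctions, had a difference of 0.39 (SE 0.12, adjusted p = 0.302) and Itga3, another laminin-binding partner of Itgb1, of 0.75 (SE 0.26, adjusted p = 0.341). The 95% interval of Itga3 ran from 0.04 to 1.47. Itga3 was named after its values were seen.

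Markers of epithelial cells, in which Itga6 is also expressed, are given beside its value, and by limma 0 of the 6 passed adjusted over all genes. All 3 replicates lay below GFP for 5 of the 6, where 25.6% of all genes had this, the exception being Krt18 at 2.25 in GFP. Their mean level was 5.00 in GFP and 3.71 to 4.06 with ezrinT567A-GFP. Krt5 read 6.73 in GFP and 4.57 to 4.75 with ezrinT567A-GFP, Epcam 5.48 and 4.90 to 5.13, and Cdh1 4.21 and 2.66 to 3.43. By mean level over the arrays, 2 of the 6 lay above the median gene level. Of the 6 markers 3 were at least 2-fold lower, where 0.704% of all genes were. Probe sets differed in sign for Krt8 (-0.42 to 0.32). Those of Krt14 gave -2.80, -2.54 and, for a dim probe set at 2.92 in GFP, 0.08. Whether such cells were present, or had a part in the Itga6 value, was not tested.

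Itgbl1, an integrin-beta-like secreted protein, read 7.57 on the GFP array and 6.87, 6.10 and 6.06 in the replicates. All were below GFP, with a difference of -1.23 (SE 0.38, limma adjusted p = 0.306). Itgal, the alpha subunit of a leukocyte receptor, was dim at 3.42 in GFP with a difference of 0.61 (SE 0.18), and its other probe set gave 0.08.

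**Figure D3:**
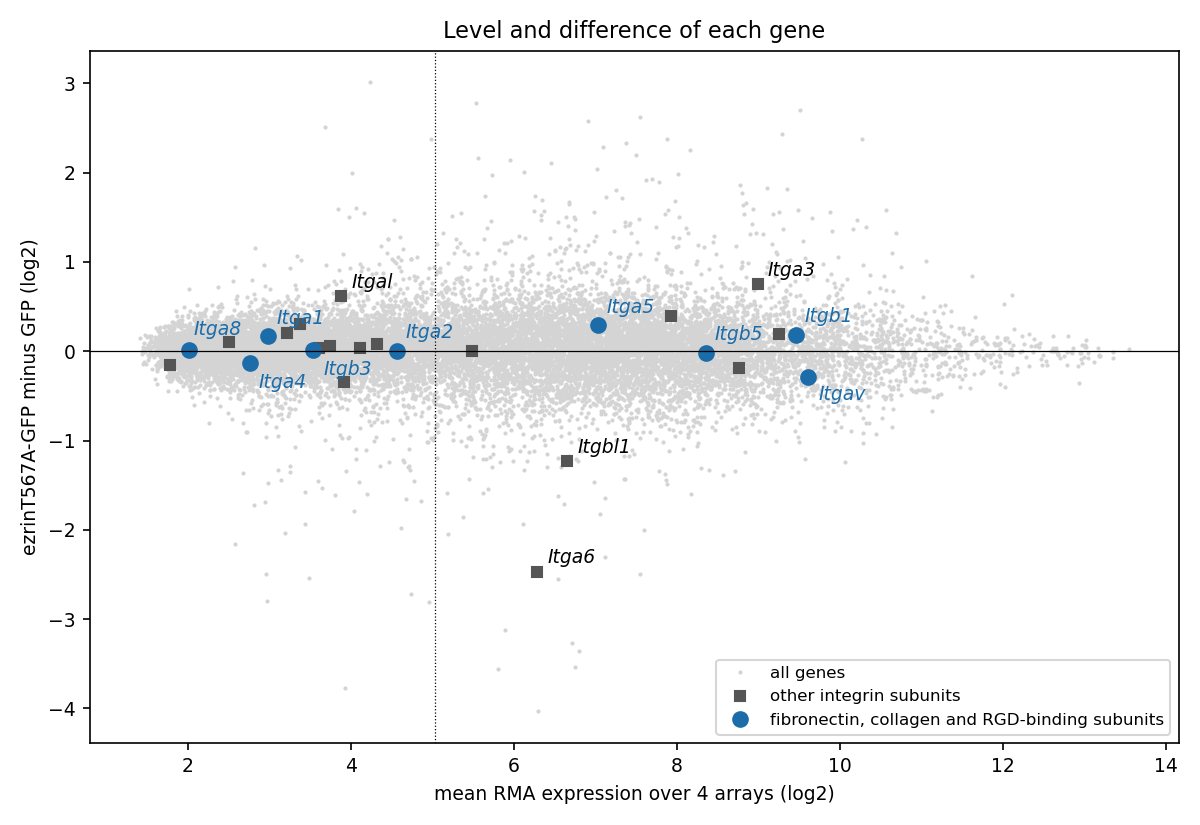
Mean level over the 4 arrays (log2, horizontal axis) against the difference ezrinT567A-GFP minus GFP (log2, vertical axis) for 18193 genes (grey dots), the 9 subunits (blue circles) and the other integrin genes (squares). The dotted line is the median gene level. The blue circles stay between -0.29 and 0.29 across the range of levels, while Itga6 stands at -2.47.

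Ligands of the RGD and fibronectin-binding receptors showed no common direction. Of 24 listed ligand genes 22 were measured, without Spp1 (osteopontin) and Fbn1. Of the 22 measured, 12 were above and 10 below GFP on the mean, where 10201 and 7984 of all 18193 genes were. Their median difference was 0.03, the value of all genes. By limma 0 passed adjusted over all genes, while 2 higher and 1 lower had an unadjusted p under 0.05, where 7.46% and 6.50% of all genes did. Fn1, which encodes fibronectin itself, read 8.58 on the GFP array and 8.64, 8.0002 and 8.43 in the replicates, a difference of -0.23 (SE 0.28) with GFP inside their range. Vtn, the vitronectin gene, was dim at 3.52 in GFP and 3.49 to 3.64 with ezrinT567A-GFP.

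Larger values belonged to other matrix proteins. Tgfbi, an RGD-bearing matrix protein induced by TGF-beta, read 6.12 on the GFP array and 4.86, 4.36 and 4.11 in the replicates, a difference of -1.68 (SE 0.32, limma adjusted p = 0.231). All replicates lay below GFP, and its 4 probe sets gave -3.09 to -1.21. Fbln5, which binds RGD integrins and elastic fibres, read 4.10 in GFP and 5.97, 5.42 and 5.46 in the replicates, a difference of 1.51 (SE 0.27, limma adjusted p = 0.224). All replicates were above GFP, but its second, dim probe set gave -0.10.

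Ccn3, a matricellular protein of the CCN family, had a difference of 1.33 (SE 0.47, limma adjusted p = 0.347), with 7.14 in GFP and 8.06 to 9.13 with ezrinT567A-GFP. Tnc, or tenascin-C, had one of -0.30 (SE 0.12, limma adjusted p = 0.370), its replicates at 4.77 to 4.84 below 5.10 in GFP. Both genes had all 3 replicates on 1 side of GFP.

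Of 13 collagen ligands 8 were below GFP on the mean and 5 above, where 7984 and 10201 of all 18193 genes were. Their median difference was -0.06. By limma 0 of 13 passed adjusted over all genes, and 2, both lower, had an unadjusted p under 0.05, where 6.50% of all genes were lower at that p and 14.0% in either direction. These were the fibrillar Col5a1 (-0.53, SE 0.11, its probe sets -0.53 to 0.07) and the microfibrillar Col6a2 (-0.48, SE 0.17). The type I collagen chain Col1a2, a main ligand of the collagen-binding integrins, was at 12.3 in GFP with a difference of 0.14 (SE 0.08), and the basement membrane chain Col4a2 was dim with a difference of 0.20 (SE 0.12).

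Inside the cell, 33 of 36 listed adhesion adaptors and signalling genes were measured, most of them bright. Ptk2 (focal adhesion kinase), Fermt1 and Nedd9 were not measured. By limma 0 of 33 passed adjusted over all genes, and the median difference was 0.09. At an unadjusted p under 0.05 there were 2 higher and 4 lower, where 7.46% and 6.50% of all genes were. Vcl, or vinculin, which binds talin and actin under load, read 9.59 on the GFP array and 9.94, 10.1 and 10.2 in the replicates. All were above GFP, with a difference of 0.50 (SE 0.14, limma adjusted p = 0.285), and its second probe set gave 0.56. Tgfb1i1, or Hic-5, a paxillin relative at focal adhesions, read 8.09 in GFP and 8.59 to 8.68 with ezrinT567A-GFP, and differed by a mean of 0.54 (SE 0.11, limma adjusted p = 0.231).

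On the lower side, Tns1, or tensin, which links integrin tails to actin, had a difference of -0.78 (SE 0.23, limma adjusted p = 0.298), with 7.14 in GFP and 6.14 to 6.63 with ezrinT567A-GFP. Its 3 probe sets gave -1.24 to -0.75. Cav1, the caveola coat protein that associates with integrins, read 11.3 in GFP and 10.8 to 10.9 with ezrinT567A-GFP, and differed by a mean of -0.44 (SE 0.10, limma adjusted p = 0.261). The replicates of both genes lay below GFP. Among the beta-tail activators, Tln1, the main talin, had a difference of 0.37 (SE 0.20, its probe sets 0.11 to 0.61) and Fermt2, the mesenchymal kindlin, of 0.23 (SE 0.20, its probe sets -0.17 to 0.37). Probe sets of the second talin, Tln2, ranged from -0.68 to 0.03, and those of the dim blood-cell kindlin Fermt3 from -1.47 to 0.07.

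**Figure D4:**
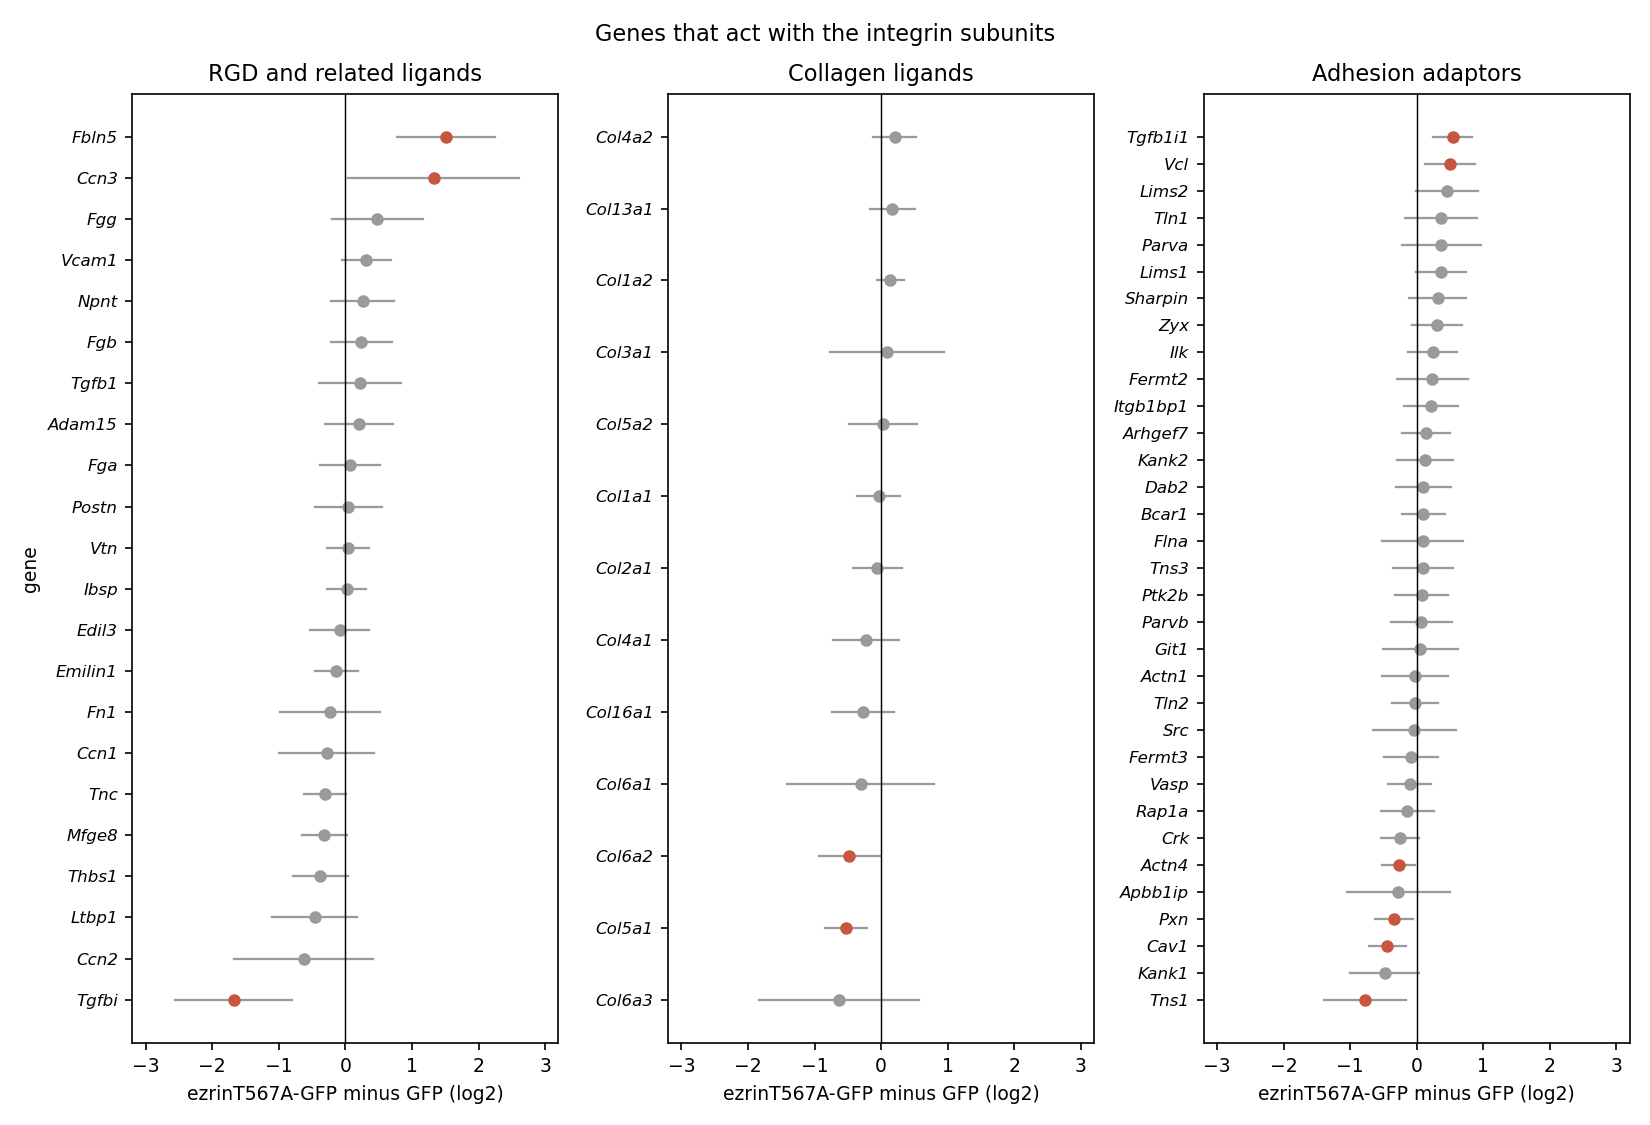
Difference ezrinT567A-GFP minus GFP (log2, horizontal axis) for 22 ligands of RGD and fibronectin-binding integrins, 13 collagen ligands and 33 adhesion adaptors. Points are means over 3 replicates, bars limma's 95% intervals, and red points have an unadjusted p under 0.05. Fbln5 (1.51) and Tgfbi (-1.68) stand at the ends of the first panel, and the other panels hold no 2-fold difference.

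The genes most like Itgb1 over the 3 differences from GFP were sought among 9096 genes above the median level, by Euclidean distance. Mphosph8 (0.02), Pex11a (0.03) and Helz (0.03) were nearest, with mean differences of 0.19, 0.20 and 0.20 beside the 0.19 of Itgb1. Helz probe sets ranged from -0.61 to 0.39.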

How the data were processed

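The authors deposited log2 values for every probe set of 4 one-colour Affymetrix arrays, made with RMA according to the submitters' processing notes. The software version is not given in the sources used here, and the log2 scale was read from the range (1.18 to 13.7). RMA equalises the arrays' distributions, so a change in total RNA would not be seen.

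Of 45101 probe sets, 34945 with 1 gene symbol that were not controls were kept, named from the platform annotation. Each of 18193 genes was represented by its brightest probe set on average, with no filter on dim genes. The probe sets that stand for Ezr, Tgfbi, Ccn3, Krt14 and Epcam are of the _x_at kind, which may also bind other transcripts. limma 3.58.1 in R 4.3.3 (lmFit, eBayes with a mean trend) compared 3 ezrinT567A-GFP arrays with 1 GFP array, two-sided, with 2 residual degrees of freedom and a prior worth 2.23. A second fit covered all 34945 probe sets. The scripts were tested on simulated data. The number of arrays limits the precision.

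The members and gene lists were chosen with earlier results of these data known. Named genes were all members, up to 4 genes with the smallest p of each ligand, adaptor and other integrin list, other integrins at least 2-fold apart, the 3 genes nearest to the member with the largest moderated t, and Ezr. Fn1, Vtn, Tln1, Tln2, Fermt2, Fermt3, Itga3, Itgae, Itgax, Itgb2, Itgb7 and markers were named outside this rule. Alternatives were quantile normalization, median centring, other choices of probe set, a filter on dim genes, other priors and leaving out each replicate. Figures used matplotlib 3.10.9.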

Additional observations from a re-analysis of the deposited data

How the results depend on the processing

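Under every alternative run, limma called 0 of the measured members, also at an adjusted p under 0.1 and at a 2-fold minimum, and the lowest adjusted p of any member was 0.421. The count over all genes was 0 as reported. It was also 0 without any 1 replicate, without the mean trend and with plain _at probe sets only. It was 36 after quantile normalization, 6 after median centring, 6 when probe sets of a gene were averaged, 3 above the median level, 9 with a robust prior and 6 at an adjusted p under 0.1. The members' median difference of 0.02 was 0.0725 with averaged probe sets and 0.0851 over the 4 members above the median level, and ran from 0 to 0.03 without 1 replicate. The cause was not tested. Signs turned only for members near 0 and for Itga4. Itga2 was -0.0017 after quantile normalization, -0.0095 after centring and -0.0529 to 0.0387 without 1 replicate. Itgb3 was -0.0028 after quantile normalization. Itgb5 was 0.0063 after quantile normalization, 0.0199 with plain _at probe sets and -0.0848 to 0.0875 without 1 replicate. Itga4 was 0.0874 with averaged probe sets. Outside the members, Ezr was -0.0033 after centring and -0.0204 to 0.0615 without 1 replicate, and Helz was -0.61 with plain _at probe sets. Itga6 passed after quantile normalization (-2.45, adjusted p = 0.0223). No paired analysis was possible because the GFP group has 1 array, whose label carries no replicate number.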

Other observations

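Beta subunits known mainly from leukocytes gave bright signals in this osteosarcoma line. Itgb2 read 8.90 on the GFP array and 8.98, 8.63 and 8.53 in replicates 1, 2 and 3. Itgb7 read 9.11 on the GFP array and 9.75, 8.96 and 9.20 in the replicates. For both genes GFP lay inside the range of the replicates, so neither level differed between the groups beyond its spread. Probe sets for their usual alpha partners were dim, with Itgal at 3.42, Itgam at 2.43, Itgax at 3.58 Itgae at 3.15 and the fibronectin-binding Itga4 at 2.86 on the GFP array. Among leukocyte markers Csf1r, the receptor for macrophage colony-stimulating factor, read 11.9 on the GFP array, while the pan-leukocyte gene Ptprc read 2.22 and the macrophage gene Adgre1 2.76. The choice of these genes followed a look at their values, and what the probe sets bind was not tested.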
